A study of Mus musculus with 8 samples.

Results

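A set of 10 genes of bone morphogenetic protein (BMP) signalling was followed in intestinal epithelial cells of lactating mice with and without the receptor RANK. They were the ligand Bmp2, the receptors Bmpr1a and Bmpr2, the signal carriers Smad1 and Smad5, the inhibitory SMADs Smad6 and Smad7, and the target genes Id1, Id2 and Id3. The members were chosen by name and role, and are 10 of the 54532 genes in the count table. All 10 passed the filter on low counts, which left 9855 genes for testing.

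Cells came from the intestine of C57BL/6J females at lactation day 5, 4 WT and 4 Rank-knockout, with 1 library per sample. In the Rank-knockout animals, floxed Rank (Tnfrsf11a) was deleted by a Cre driven by the villin promoter, which is active throughout the intestinal epithelium, so that other tissues keep the gene. The controls were littermates without the deletion. RNA was read by 3′ mRNA-seq, which yields roughly 1 tag from a transcript, long or short, and tag counts per gene were compared between genotypes to ask how the loss of RANK changes expression in the lactating intestine.

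BMP ligands bind pairs of type I and type II receptors on the cell surface, and the type I receptor then phosphorylates SMAD1 and SMAD5, which join SMAD4 and enter the nucleus. The genes of the ID proteins, which hold back basic helix-loop-helix transcription factors, and those of the inhibitory SMADs are classical targets, the latter closing a negative feedback loop. In the intestine, BMP activity is high towards the villus and low in the crypt, where it restrains stem cell renewal.

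Promoter sequence was at hand for 7 members, namely Bmpr1a, Bmpr2, Smad1, Smad5, Smad6, Id2 and Id3, from RefSeq on GRCm38.p6. It was searched on both strands for GGCGCC, a GC-rich element that SMAD1 and SMAD5 are known to bind, and for CAGAC, the SMAD box. Within 250 bases before the start site, GGCGCC stood in 9.59% of 32851 promoters and CAGAC in 42.2%. Among the 9 windows of the members, 4 held GGCGCC, once each in Bmpr1a, Bmpr2, Id2 and 1 of the 3 windows of Smad5, whereas 2 held CAGAC, in Id3 and in another window of Smad5. The GC content of the 9 windows was 60.0% to 78.8%, against a median of 52.4% over all promoters, so the share with this GC-rich motif cannot be read as an enrichment. The windows of Id2, at chr12:25096093-25096342 on the minus strand, and Id3, at chr4:136143572-136143821 on the plus strand, are shown because the ID genes are read-outs of the pathway, and Id2 passed the test described further on whereas Id3 did not. Capitals mark GGCGCC in Id2 and CAGAC or its reverse complement in Id3. Both windows run 5′ to 3′ up to the RefSeq start site. The GENCODE M21 spans, chr12:25093799-25097140 for Id2 and chr4:136143497-136145755 for Id3, begin further upstream, so both windows lie within them.
Id2: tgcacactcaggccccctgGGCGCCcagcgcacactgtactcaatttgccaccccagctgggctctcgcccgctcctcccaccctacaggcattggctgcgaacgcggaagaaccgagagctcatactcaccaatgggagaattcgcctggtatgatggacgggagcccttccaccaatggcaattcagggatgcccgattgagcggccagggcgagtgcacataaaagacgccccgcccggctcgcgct
Id3: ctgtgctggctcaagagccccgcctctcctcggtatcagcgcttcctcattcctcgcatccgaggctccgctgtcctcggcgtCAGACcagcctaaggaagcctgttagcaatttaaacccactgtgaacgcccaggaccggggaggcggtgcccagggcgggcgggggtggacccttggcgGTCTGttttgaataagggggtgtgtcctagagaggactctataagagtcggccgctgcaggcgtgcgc
The GGCGCC of Id2 began 231 bases before its start site, and the CAGAC matches of Id3 began 167 and 68 bases before its own. A match describes these letters only, and binding was not measured.

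Total counts ran from 1530781 to 4335653 per library, and the members took 1098 to 2889 counts of a library. WT replicates 1, 3 and 4, with at most 1616024 counts, were shallower than every Rank-knockout library, with at least 2103716. Levels are given as counts per 1e6 counts (CPM) after TMM scaling, and 3 counts corresponded to between 0.637 and 2.06 CPM depending on the library. The TMM factors also split by genotype, at 0.917 to 0.961 in WT and 1.06 to 1.10 in Rank-knockout. Within the genotypes the libraries were not alike. WT replicate 2, the deepest, was the lowest WT library for 6 of the 10 members (Bmp2, Bmpr1a, Smad1, Smad6, Id1 and Id3) but the highest for Id2. Rank-knockout replicate 4 was the highest of its genotype for 7 members, all except Bmpr2, Smad5 and Smad6. Tnfrsf11a itself was lower in the Rank-knockout libraries, at 38.0 ± 8.64 CPM (SD, n = 4) against 60.7 ± 17.7 in WT, with overlapping genotypes. Its log2 fold change, Rank-knockout minus WT, was -0.67 (SE 0.22, edgeR adjusted p = 0.032). The paper reports that RANK was lost from the intestine of mice with this deletion. Whether tags from the 3′ end of that gene lie outside the deleted stretch was not tested.

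The clearest change among the members was in Smad7, which fell in the Rank-knockout cells, together with Bmp2 and Id2. By edgeR's quasi-likelihood test with Benjamini-Hochberg adjustment over all genes tested, 3 of the 10 members were lower at an adjusted p under 0.05. No member was higher, at an unadjusted p under 0.05 or by DESeq2 and limma-voom either. Over all genes tested 14.6% were lower and 30.4% changed in either direction, and the share of members called in either direction was close to that background. All 10 members had a log2 fold change (log2FC, Rank-knockout minus WT) below 0, as did 4757 of the 9855 genes tested. The median log2FC of the members was -0.26, against 0.02 over all genes tested. Scaling by library totals moved the median of all genes by 0.20 and turned Smad1, Smad5, Id1 and Id3 to slightly above 0, and scaling without the 50 most abundant genes moved it by 0.13 and turned Smad1 and Smad5. Under both of these scalings, 1 member, Smad7, was past the threshold.

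**Figure D1:**
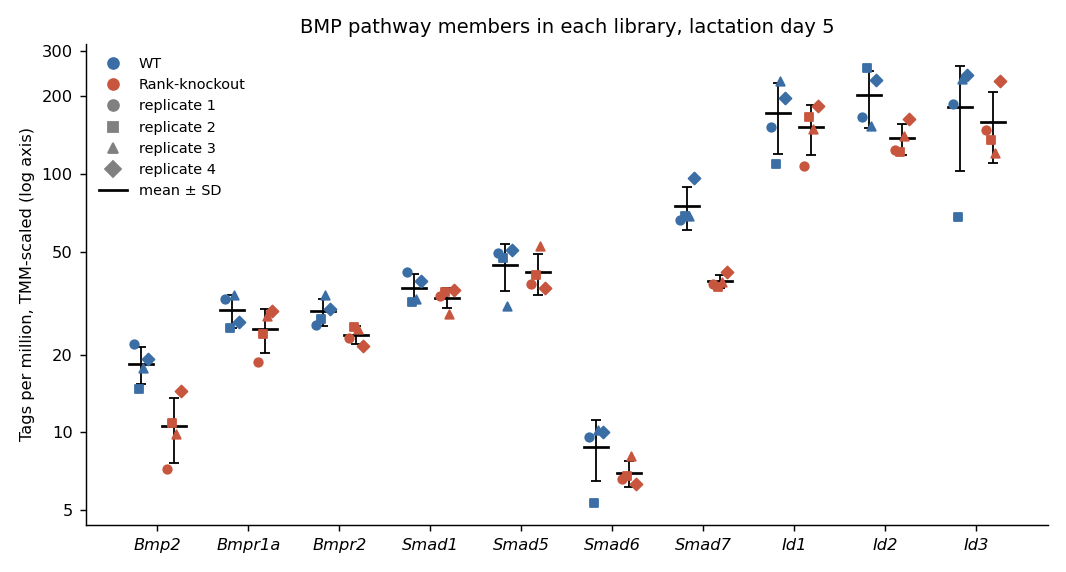
CPM of each member in each of the 8 libraries on a log axis, with blue points for WT and red points for Rank-knockout, 1 marker shape per replicate number, and black bars for mean ± SD. Smad7 shows the widest gap between the genotypes, from at most 41.6 CPM in Rank-knockout to at least 66.4 CPM in WT, while the points of Smad1, Smad5, Id1 and Id3 intermingle.

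In order of level, the ID genes led in both genotypes. A 3′ tag count is about 1 per transcript, so CPM levels of different genes can be set side by side without dividing by length. In WT the mean level was 202 CPM for Id2, 182 CPM for Id3 and 172 CPM for Id1, and these 3 overlapped. Smad7 followed at 75.2 CPM, below Id1 and above Smad5 in all 4 WT libraries, although Id3 in WT replicate 2, at 68.4 CPM, reached its range. Smad5, Smad1, Bmpr1a and Bmpr2, between 44.4 and 29.4 CPM, overlapped from each to the next, and Bmp2 at 18.4 CPM and Smad6 at 8.79 CPM each stood apart from the gene above. In the Rank-knockout libraries Id2 was the lowest of the ID genes, with overlap, and Smad7 lay next to Smad5, which was above it in 2 of 4 libraries.

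Bmp2, the ligand, is known in the intestine as a product of differentiated villus cells as well as of the tissue below them. Its level was 21.9, 14.7, 17.8 and 19.3 CPM in WT replicates 1 to 4 and 7.22, 10.9, 9.89 and 14.5 CPM in Rank-knockout replicates 1 to 4. The genotypes did not overlap, but WT replicate 2 and Rank-knockout replicate 4 were almost level. In all, 3 of the 10 members (Bmp2, Bmpr2 and Smad7) were lower without overlap, as were 14.3% of all genes tested. The log2FC of Bmp2 was -0.77 (SE 0.25, 95% interval -1.30 to -0.24), with an edgeR adjusted p of 0.030. It rests on 145 WT and 140 Rank-knockout counts in all. Leaving out WT replicate 1 or 4, or 1 of Rank-knockout replicates 1, 2 and 3, ended the call, with log2FC values of -0.70, -0.77, -0.59, -0.78 and -0.74 and edgeR adjusted p values between 0.057 and 0.10. Bmp2 lies at chr2:133552159-133562885 on the plus strand of GRCm38.

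Bmpr1a and Bmpr2 encode a type I and a type II BMP receptor, and neither passed the test. Bmpr1a was at 32.9, 25.3, 34.1 and 26.6 CPM in the WT libraries and 18.7, 24.02, 28.3 and 29.5 CPM in those of Rank-knockout, with broad overlap. Its log2FC was -0.24 (SE 0.20, 95% interval -0.66 to 0.19, edgeR adjusted p = 0.40). Bmpr2 was at 26.0, 27.4, 34.1 and 30.0 CPM in the WT libraries and 23.1, 25.5, 25.2 and 21.6 CPM in those of Rank-knockout. Here every WT library lay above every Rank-knockout library, by a narrow margin. Its log2FC was -0.30 (SE 0.18, 95% interval -0.67 to 0.08, edgeR adjusted p = 0.22), which leaves a moderate fall within the interval. A transcript of unknown class, Gm38125, overlaps Bmpr2 on the same strand and held 29 counts over all libraries.

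Smad1 and Smad5, the carriers of the signal, did not pass the test. Smad1 was at 41.8, 31.9, 32.8 and 38.6 CPM in the WT libraries and 33.8, 34.9, 28.8 and 35.6 CPM in those of Rank-knockout. Smad5 was at 49.3, 47.1, 30.7 and 50.6 CPM in the WT libraries and 37.4, 40.5, 52.6 and 36.1 CPM in those of Rank-knockout. Both genes overlapped broadly, with log2FC values of -0.11 each (95% intervals -0.47 to 0.25 for Smad1 and -0.51 to 0.29 for Smad5) and edgeR adjusted p values of 0.66 and 0.70. For both, a moderate change in either direction lies within the interval.

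Of the inhibitory SMADs, Smad7 passed the test and Smad6 did not. Smad6, which chiefly restrains the BMP branch, was at 9.59, 5.32, 10.2 and 9.98 CPM in the WT libraries and 6.58, 6.75, 8.09 and 6.33 CPM in those of Rank-knockout. WT replicate 2 lay below all Rank-knockout libraries and the other WT libraries above them. Its log2FC was -0.28 (SE 0.30, 95% interval -0.90 to 0.35, edgeR adjusted p = 0.51), and -0.54 (edgeR adjusted p = 0.18) without WT replicate 2. Smad6 is the lowest of the members, with 65 WT and 91 Rank-knockout counts in all.

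Smad7, which restrains both the BMP and the TGF-β branch, was at 66.4, 68.9, 69.0 and 96.5 CPM in the WT libraries and 37.4, 36.4, 38.2 and 41.6 CPM in those of Rank-knockout. The genotypes were well apart, and WT replicate 4 stood above the other WT libraries. Its mean in Rank-knockout, 38.4 ± 2.29 CPM (SD, n = 4), was 51.1% of the 75.2 ± 14.2 CPM of WT. Its log2FC was -0.96 (SE 0.16, 95% interval -1.31 to -0.62), with an edgeR adjusted p of 0.00069. Smad7 was past the threshold with all libraries and under each of the 17 alternatives, with log2FC values between -1.04 and -0.77 and -0.86 without WT replicate 4. The difference between the changes of Smad6 and Smad7 was not tested. Smad7 lies on chromosome 18.

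**Figure D2:**
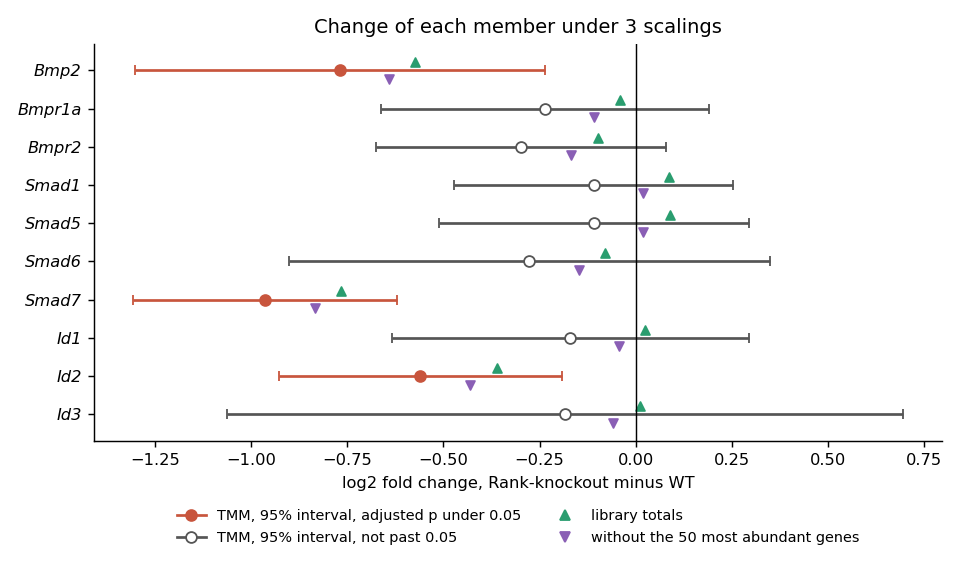
Log2FC of each member (x axis, Rank-knockout minus WT) with its 95% interval under TMM scaling, filled red where the edgeR adjusted p was under 0.05, and the estimates with library totals (green) and without the 50 most abundant genes (purple). Smad7 has the lowest estimate under each scaling, at -0.96 with TMM and -0.77 with library totals, and both other scalings move every member to the right.

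Of the ID genes, Id2 passed the test and Id1 and Id3 did not. The difference between the change of Id2 and those of Id1 and Id3 was not tested. Id1 was at 152, 109, 229 and 196 CPM in the WT libraries and 107, 167, 149 and 184 CPM in those of Rank-knockout. Its genotypes overlapped in part and the log2FC was -0.17 (SE 0.22, 95% interval -0.63 to 0.29, edgeR adjusted p = 0.59). Id3 was at 186, 68.4, 234 and 241 CPM in the WT libraries and 149, 135, 121 and 229 CPM in those of Rank-knockout. WT replicate 2 was far below every other library. The log2FC of Id3 was -0.18 (SE 0.38, 95% interval -1.06 to 0.70, edgeR adjusted p = 0.76), the widest interval of the members, and it was -0.48 (edgeR adjusted p = 0.076) without WT replicate 2. The interval spans a halving as well as a rise, so that no change in Id3 was detectable between these libraries.

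Id2 was at 166, 257, 153 and 230 CPM in the WT libraries and 124, 121, 141 and 163 CPM in those of Rank-knockout. WT replicates 2 and 4 were above all others, and Rank-knockout replicate 4 was above WT replicate 3, so the genotypes overlapped. Its log2FC was -0.56 (SE 0.17, 95% interval -0.93 to -0.19, edgeR adjusted p = 0.023). It was no longer called when WT replicate 2 or 4, or 1 of Rank-knockout replicates 1, 2 and 3, was left out, where log2FC values were -0.42, -0.52, -0.51, -0.50 and -0.57 and edgeR adjusted p values ran from 0.051 to 0.073. Id2 lies at chr12:25093799-25097140 on the minus strand of GRCm38.

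**Figure D3:**
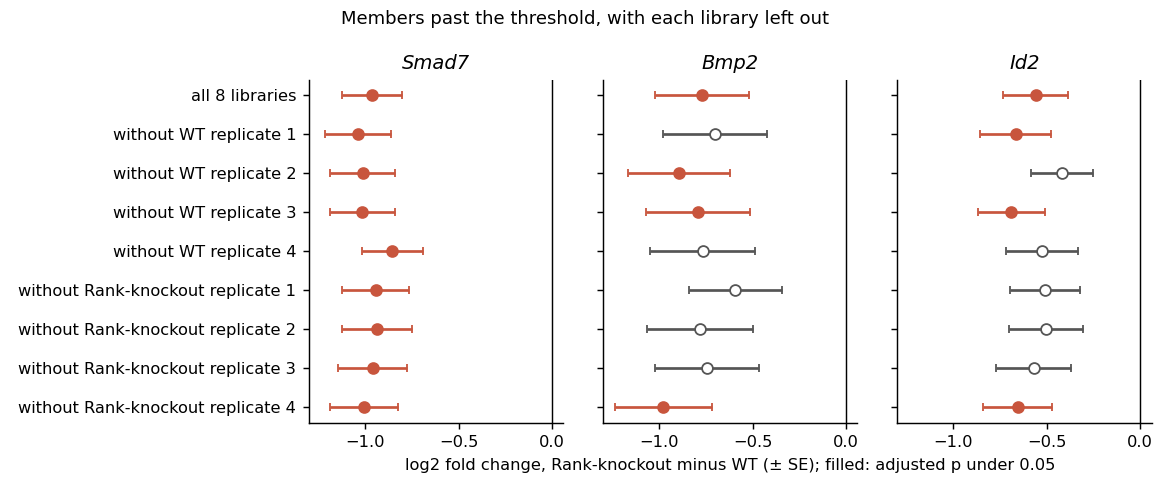
Log2FC (x axis, ± SE) of Smad7, Bmp2 and Id2 with all 8 libraries and with each library left out, filled red where the edgeR adjusted p was under 0.05. Smad7 is filled in all 9 rows, Bmp2 and Id2 in 4 each.

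Counts of 2 genes from the same library need no scaling between libraries, and ratios between members were therefore taken within each library, chosen after the values had been seen. For every 100 counts of Smad1 and Smad5 together there were 72.9, 87.2, 109 and 108 counts of Smad7 in WT, and 52.5, 48.3, 47.0 and 58.1 in Rank-knockout. Relative to the SMADs that carry the signal, Smad7 was thus lower in every Rank-knockout library than in any WT library. Of every 100 counts of Smad6 and Smad7, Smad7 took 87.1 to 92.8 in WT and 82.5 to 86.8 in Rank-knockout. These did not overlap, but WT replicate 3, at 87.07, and Rank-knockout replicate 4, at 86.81, were almost level. Smad6 gave only 14 to 31 counts per library, and whether this gap exceeds counting error was not tested.

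For every 100 counts of the receptors Bmpr1a and Bmpr2 together there were 37.2, 27.9, 26.0 and 34.1 counts of Bmp2 in WT and 17.3, 21.97, 18.5 and 28.4 in Rank-knockout. Rank-knockout replicate 4 lay within the WT range, so the genotypes overlapped. Of all counts of Id1, Id2 and Id3, Id2 took 32.9%, 59.2%, 24.8% and 34.5% in WT and 32.6%, 28.6%, 34.3% and 28.3% in Rank-knockout. The make-up of the ID transcripts therefore overlapped between genotypes, with WT replicate 2 apart from all other libraries, and the summed level of the 3 genes did so too, at 434 to 668 CPM in the WT libraries and 380 to 576 CPM in those of Rank-knockout. These ratios were compared as values, with no test.

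**Figure D4:**
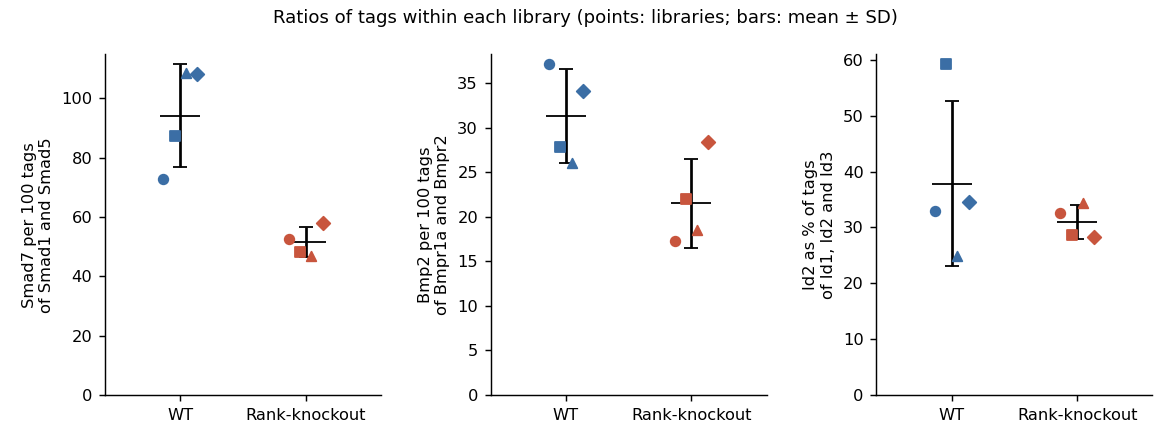
Ratios of tag counts within each library, with 1 point per library, marker shapes for replicate numbers as in the plot of member levels, and black bars for mean ± SD (n = 4). The genotypes are apart for Smad7 per 100 tags of Smad1 and Smad5 (94.2 ± 17.4 in WT, 51.5 ± 5.02 in Rank-knockout) and overlap in the other panels.

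Around the members, 55 further genes of the pathway were listed by role, 24 of which were tested. Of these, 1 was higher and 5 were lower in Rank-knockout, with a median log2FC of -0.20. The share called, 6 of 24, was below the 30.4% of all genes tested. Those lower were the ligand Bmp8a, the receptor Acvr2a, the antagonist Crim1 and the SMAD regulators Skil and Ppm1a, and the co-receptor Rgmb was higher.

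Bmp8a had the largest change of the 4 tested ligands, with 43.8, 37.5, 44.4 and 53.9 CPM in the WT libraries and 12.9, 13.5, 17.1 and 8.17 CPM in those of Rank-knockout. The genotypes were far apart, and the log2FC was -1.81 (SE 0.22, edgeR adjusted p = 0.00014). Its near-identical neighbour Bmp8b, which the filter on low counts removed, had a total of 35 WT and 16 Rank-knockout counts. It was called lower by edgeR with no filter (-1.80, adjusted p = 0.012) and by DESeq2 (-1.89, adjusted p = 0.015), and reads of these 2 genes could be split between them. Bmp3 and Bmp7, the other tested ligands, had log2FC values of 0.56 and 0.72 and edgeR adjusted p values of 0.14 and 0.086. Bmp3 passed without WT replicate 2 (0.84, edgeR adjusted p = 0.034), and Bmp7 did so with WT replicate 2 omitted (0.97, 0.045) or with Rank-knockout replicate 4 omitted (0.86, 0.038), and both passed with library totals (0.76 and 0.92). Bmp3 passed with thinned libraries too (0.86), and Bmp7 without the 50 most abundant genes (0.85). Bmp4, a mesenchymal ligand, had 2 WT counts and 0 Rank-knockout counts, and Bmp6, Bmp10, Gdf2, Gdf5, Gdf6 and Gdf7 had 0 counts in all libraries, which allows up to 0.138 CPM over the 8 libraries together.

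Acvr2a, a type II receptor for BMPs and activins, was at 15.5 ± 2.31 CPM in the WT libraries and 9.13 ± 1.88 CPM in those of Rank-knockout (SD, n = 4), without overlap. Its log2FC was -0.71 (SE 0.24, edgeR adjusted p = 0.033). It was not called when WT replicate 1 or 4 or 1 of Rank-knockout replicates 1, 2 and 3 was omitted (-0.65, -0.73, -0.75, -0.62 and -0.67), nor with library totals (-0.52), without the 50 most abundant genes (-0.59), with no filter (-0.68) or by DESeq2 (adjusted p = 0.057). Acvr2b and Acvr1, the other tested receptors, had log2FC values of -0.06 and 0.15 and did not pass, and Bmpr1b had 0 counts. Rgmb, a GPI-anchored co-receptor, was at 31.5 ± 10.6 CPM in the WT libraries and 50.6 ± 10.6 CPM in those of Rank-knockout, with overlap and a log2FC of 0.71 (SE 0.22, edgeR adjusted p = 0.026). Omitting WT replicate 2, 3 or 4 or 1 of Rank-knockout replicates 1 and 3 ended the call (0.59, 0.56, 0.70, 0.56 and 0.68), as did thinning all libraries to the shallowest (0.59). Neo1, the receptor of RGM proteins, was at -0.31 (edgeR adjusted p = 0.13) and passed without WT replicate 2 (-0.44, edgeR adjusted p = 0.030). Hfe2, the gene of the co-receptor hemojuvelin, had 0 counts.

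Crim1, a transmembrane protein that binds BMPs, was at 87.0, 36.5, 53.3 and 69.2 CPM in the WT libraries and 31.4, 25.5, 22.5 and 29.3 CPM in those of Rank-knockout. WT replicate 2 was again the lowest WT library, and the genotypes did not overlap. Its log2FC was -1.14 (SE 0.23, edgeR adjusted p = 0.0024). Of the secreted antagonists, Nog, Chrdl1, Chrdl2, Bmper and Sostdc1 had 0 counts in all libraries, Grem1 and Chrd had 1 count each, and Twsg1 was tested and did not pass (0.52, edgeR adjusted p = 0.26). Nbl1, which the filter removed, had 56 WT and 21 Rank-knockout counts and was called lower by edgeR with no filter (-1.84, adjusted p = 0.0013) and by DESeq2 (-1.82, adjusted p = 0.017). With these 2 genes, 7 other pathway genes were lower with no filter and 6 by DESeq2.

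Among genes that act on SMADs, Skil, whose product SnoN holds SMAD complexes back at their targets, was at 64.4, 54.7, 70.3 and 85.9 CPM in the WT libraries and 42.0, 27.0, 41.4 and 44.0 CPM in those of Rank-knockout. The genotypes did not overlap and the log2FC was -0.82 (SE 0.19, edgeR adjusted p = 0.0047). Ppm1a, a phosphatase that acts on SMADs, was at 275 ± 19.3 CPM in the WT libraries and 195 ± 34.1 CPM in those of Rank-knockout (SD, n = 4), with a log2FC of -0.50 (SE 0.15, edgeR adjusted p = 0.017). Omitting either of Rank-knockout replicates 1 and 2 ended the call (-0.41 and -0.47), as did library totals (-0.30) and scaling without the 50 most abundant genes (-0.37). The remaining 10 tested regulators did not pass, among them Fkbp1a (-0.17), Ctdsp2 (-0.22) and Nedd4l (-0.25). Of these 10, Smurf2 and Tob1 passed without WT replicate 2 (-0.58 and -0.89, edgeR adjusted p = 0.035 and 0.012), and Tob1 also with no filter on low counts (-0.61, edgeR adjusted p = 0.034). Smad4, the common partner, had a log2FC of -0.12 (edgeR adjusted p = 0.55), and Smad9 had 1 count in all. Like Smad7, the genes Bmp8a, Crim1 and Skil were past the threshold under all 17 alternatives. Of further targets, Id4 was tested and did not pass (0.68, edgeR adjusted p = 0.19) and Msx2 had 0 counts.

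**Figure D5:**
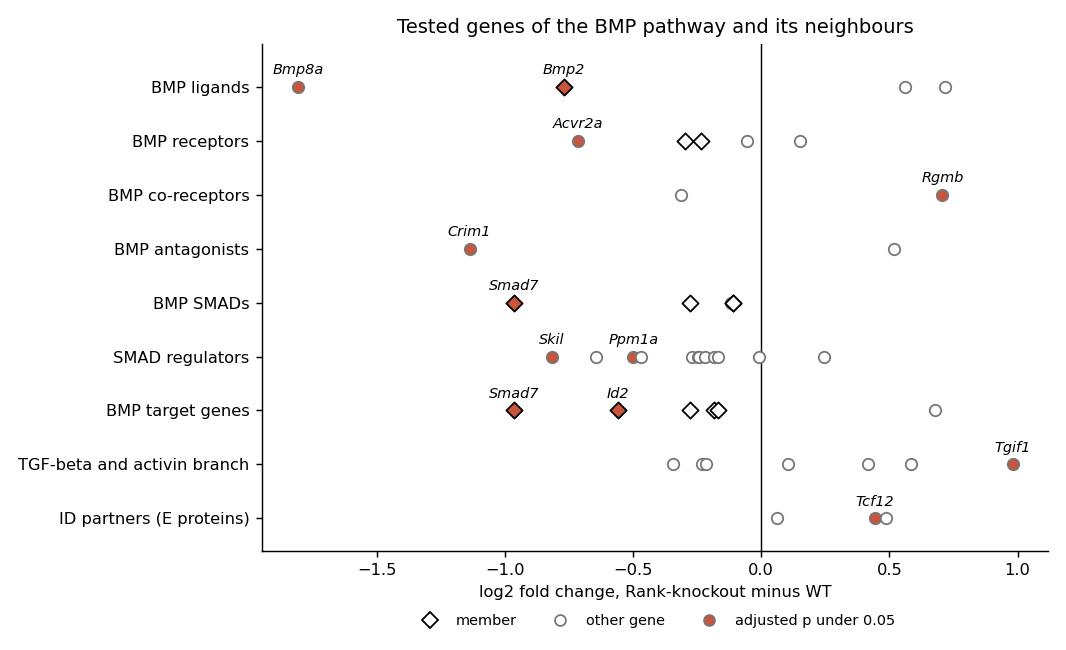
Log2FC (x axis, Rank-knockout minus WT) of every tested gene of 9 lists, with diamonds for the members, circles for other genes, and red fill with a name where the edgeR adjusted p was under 0.05. A gene in 2 lists, such as Smad7, appears in both. Bmp8a lies farthest to the left, at -1.81, and Tgif1 farthest to the right, at 0.98.

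In the neighbouring TGF-β and activin branch, 7 of 14 listed genes were tested and 1 changed. Tgif1, a repressor that acts with SMAD2 and SMAD3, was higher at 8.48 ± 1.44 CPM in Rank-knockout against 4.34 ± 0.911 CPM in WT (SD, n = 4), with a log2FC of 0.98 (SE 0.31, edgeR adjusted p = 0.024). It was not called with WT replicate 1, 2 or 4 omitted (0.88, 0.88 and 0.98), nor with 1 of Rank-knockout replicates 1 to 3 omitted (0.93, 0.95 and 0.93). Pmepa1, a target of this branch, was at -0.23 (edgeR adjusted p = 0.36), Smad2 at 0.10 and Smad3 at -0.35, and none of the 3 passed. DESeq2 did not call Tgif1 either (adjusted p = 0.071). Inhbb had 0 counts.

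The E proteins, which pair with ID proteins, were measured as 3 genes. Tcf12 was higher, at 72.9 ± 10.3 CPM in Rank-knockout against 53.9 ± 4.15 CPM in WT (SD, n = 4), with a log2FC of 0.44 (SE 0.15, edgeR adjusted p = 0.038), and it fell short of the threshold in 6 of the 8 sets that leave out 1 library, all but those without Rank-knockout replicate 2 or 3, with log2FC values between 0.37 and 0.46, and with DESeq2 (adjusted p = 0.060) and thinned libraries (edgeR adjusted p = 0.10). Tcf3 was at 0.49 (edgeR adjusted p = 0.078), without overlap, and passed without Rank-knockout replicate 4 (0.57, edgeR adjusted p = 0.046), with library totals (0.69, 0.016) and without the 50 most abundant genes (0.62, 0.028). Tcf4 was at 0.06.

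The genes most like Bmp2 over the 8 libraries, by the root mean square (RMS) difference of log2 CPM after centring each gene on its mean, were 4931406C07Rik (0.11), Slc22a18 (0.12), Tmem135 (0.13), Spsb1 (0.14) and Abcg5 (0.14), where the median of 7981 genes was 0.54. Those most like Id2 were Mxd4 (0.10), Zfp513, Cdc14b, Efnb1 and Muc2 (0.13 each), with a median of 0.46. Centring over all 8 libraries keeps the genotype difference, so the measure favours genes with a similar log2FC. The log2FC values ran from -0.90 to -0.66 for the genes like Bmp2 and from -0.58 to -0.41 for those like Id2. Shared regulation was not tested. Spsb1 encodes a ubiquitin ligase adaptor, Abcg5 a sterol transporter and Muc2 the secreted mucin of goblet cells.

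Marker genes of the epithelium also differed between the genotypes. The summed level of 8 villus enterocyte markers was 18970 to 27861 CPM in the WT libraries and 9703 to 13200 CPM in those of Rank-knockout, and 7 of the 8 were lower, with a median log2FC of -1.17. All 11 replication and cell cycle genes were higher, with a median of 1.23 and a summed level of 397 to 634 CPM in the WT libraries and 931 to 1587 CPM in those of Rank-knockout. Of 5 epithelial markers 3 were lower, from a summed 9242 to 10172 CPM to 7004 to 8687 CPM. The part of these shifts in the changes of Bmp2, Smad7 and Id2 was not tested, and in bulk libraries fewer cells of a type and less RNA per cell cannot be told apart.

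Markers of stroma, muscle and vessels, which also express BMP genes, were low. The 7 stromal fibroblast markers summed to 6.66 to 13.7 CPM in the WT libraries and 4.50 to 15.01 CPM in those of Rank-knockout, with Lum at 0. The 4 smooth muscle markers summed to 2.73 to 4.80 and 1.35 to 4.88 CPM, with Tagln at 0, and the 4 endothelial markers to 0.683 to 10.3 and 1.80 to 6.38 CPM, with Cdh5 at 0. The 6 lymphocyte markers summed to 178 to 274 CPM in the WT libraries and 119 to 196 CPM in those of Rank-knockout and overlapped between the genotypes, with a median log2FC of -0.37. By adjusted p, 0 of the 6 were called by edgeR, DESeq2 or limma-voom, and 1 (Gzma) had an unadjusted edgeR p under 0.05. The part of lymphocyte RNA in the levels of Id2 and Id3, which lymphocytes also express, was not tested.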

How the data were processed

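The deposited table held raw read counts per gene for all 8 libraries, with no normalization by the authors. By the account in the paper, the authors trimmed reads with BBDuk, removed abundant sequences with bowtie2, aligned to GRCm38 (mm10 in the submitters' processing notes) with STAR and counted sense-strand reads with featureCounts. No molecular identifiers are described, PCR copies are thus counted, and limits from a count of 0 cover counting error only. Separate animals per library are not spelled out in the labels, so p values measure the spread between these samples.

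Symbols and positions came from GENCODE M21 on GRCm38. The test was edgeR 4.0.16 under R 4.3.3 (quasi-likelihood F-test, robust fit, filterByExpr, TMM, genotype as the only term), with Benjamini-Hochberg adjustment over 9855 genes and a threshold of 0.05. Of 54532 genes, 33764 had 0 counts in all libraries. SE came from the F statistic. Likeness used log2 CPM (prior count 2) and genes of at least 10 CPM on average. The procedure was tested on simulated data.

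Named genes were the 10 members in every library, listed genes past the threshold, up to 3 others per list with the highest mean CPM, listed genes with 0 counts in all libraries, the 5 most like Bmp2 and Id2, and Tnfrsf11a. A gene that this rule selects is not reported here. Bmp8b, Nbl1, Bmp4, Grem1, Chrd, Smad9, Smurf2, Tob1 and the ratios between members were added after values were seen. The members and lists were chosen with earlier results of these data known. Alternatives were RLE size factors, library totals, sizes computed after removing the 50 most abundant genes, DESeq2 1.42.0, limma-voom (limma 3.58.1), testing with no filter on low counts or with a mean of 5 CPM or more, the replicate number as a block, thinning to the shallowest library, and leaving out each library.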

Additional observations from a re-analysis of the deposited data

Results flagged for a closer look

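In 2 of the 20 sets of 4 libraries examined (10 members in each genotype), 1 library lay apart from the other 3 by a gap test at the 95% level, where chance alone gives about 1. The Smad7 level in WT replicate 4 was 96.5 CPM, with the other WT libraries between 66.4 and 69.0 CPM. The Smad6 level in WT replicate 2 was 5.32 CPM, with the other WT libraries between 9.59 and 10.2 CPM.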

How the results depend on the processing

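Among 170 estimates of the 10 members under 17 alternatives, 149 kept their direction and their side of the threshold, 14 lost significance (7 each for Bmp2 and Id2) and 7 changed sign, all in members that were not called. With library totals, 1 member was lower, 3 other pathway genes were higher and 3 lower, and Smad1 (0.087), Smad5 (0.088), Id1 (0.024) and Id3 (0.010) changed sign on the log2 scale. Without the 50 most abundant genes, 1 member was lower, 2 other pathway genes were higher and 3 lower, and Smad1 (0.018) and Smad5 (0.019) changed sign. Of all calls, 52.0% were higher with TMM, 74.9% with library totals and 68.1% without the 50 most abundant genes. Thinning turned Smad6 to a log2 fold change of 0.046. Leaving out 1 library gave 1 to 3 members lower, 0 to 2 other pathway genes higher and 3 to 8 lower. The cause was not tested. Same-numbered libraries deviated together with correlations of 0.05, 0.17, -0.23 and 0.50 over 5000 genes, and 1 of the 4 numbers correlated best with itself, so the numbers were not taken as pairs. The fit with the replicate block gave 3 members lower, called Tob1 too, and gave 1602 genes lower and 1708 higher in all, against 1438 and 1555 without it. Smad6 and Bmp2 had the fewest counts of the members, and Id3 the largest SE (0.38).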
